A study of Mus musculus with 6 samples.

Results

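Extracellular nucleotides are danger and distress signals between immune cells. Here 10 genes of this system were followed in libraries of mouse T cells cocultured with macrophages, with or without DB2313 given to the macrophages. The study calls the cells CD8T cells, but the libraries also held CD4, regulatory T cell and macrophage transcripts. The genes were found by symbol in the deposited count table, where each of the 10 names has 1 row among 54532 genes. They encode the ATP-gated channels P2rx4 and P2rx7, the G protein-coupled nucleotide receptors P2ry2, P2ry6, P2ry12 and P2ry14, the adenosine receptors Adora2a and Adora2b, and the ectonucleotidases Entpd1 (CD39) and Nt5e (CD73). ATP leaves stressed or activated cells and opens P2X channels or engages P2Y receptors. Entpd1 at the cell surface cuts ATP and ADP to AMP, Nt5e cuts AMP to adenosine, and adenosine then acts on receptors such as Adora2a and Adora2b, which raise cyclic AMP and restrain T cells and myeloid cells. The nucleotide receptors are best known from macrophages, microglia, dendritic cells and platelets, but P2rx7 also occurs on mouse T cells. Entpd1 is a surface enzyme of regulatory T cells among other cells, and Nt5e is found on many T cells.

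CD8T cells from mouse spleen, activated by beads carrying anti-CD3 and anti-CD28, shared a 24 hr coculture with thioglycolate-elicited peritoneal macrophages activated with IFN-γ (10 ng/mL, 12 hr). The study's methods state that the CD8T cells were then collected, without saying how they were parted from the macrophages. Macrophages of the control group (n = 3) had no DB2313, and those of the DB2313 group (n = 3) had been given DB2313, which inhibits Spi1 (PU.1), a master regulator of myeloid genes, with 14 nM as the concentration in the study's methods. A protocol label gives the DB2313 incubation for all 6 samples alike, so the groups rest on the treatment label. The strain and age of the mice that gave the cells are not given in the sources used here, and nothing states whether the 3 samples of a group were separate cultures, so p-values measure the spread between these samples. The labels call the samples primary T cells and name the cocultured cells as DC, where the study's methods have macrophages.

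The libraries held 16611975 to 18596217 counts. Levels are in CPM, counts relative to the library total after TMM scaling. Changes are log2 fold changes of the DB2313 group minus the control group. They were tested with the quasi-likelihood test of edgeR, p-values were adjusted by Benjamini-Hochberg over the 14883 genes tested, and a gene was called at an adjusted p under 0.05. RNA of several cell types was present, so each change below is one of the mixture, in which fewer cells of a type and less RNA per cell cannot be told apart. All 20 T cell markers rose (0.277% to 0.279% of counts in control libraries, 0.443% to 0.451% in DB2313 libraries) and all 20 macrophage markers fell (1.45% to 1.47%, then 0.564% to 0.571%). Of the other marker lists, 7 of 8 neutrophil genes and 8 of 10 tested dendritic cell genes fell, 5 of 8 B cell genes and all 6 tested platelet and megakaryocyte genes rose, and mast cell and basophil genes moved both ways (3 lower and 2 higher of 7 tested), with 3 of 6 tested stromal and endothelial genes higher. The share of counts on dendritic cell genes went from 0.375% to 0.379% in control libraries to 0.272% to 0.275% in DB2313 libraries, that on B cell genes from 0.0055% to 0.00589% to 0.00812% to 0.00828%, that on mast cell and basophil genes from 0.0882% to 0.0901% to 0.0627% to 0.0659%, and that on stromal and endothelial genes from 0.012% to 0.0124% to 0.0142% to 0.0146%. Of all tested genes, 20.8% rose and 24.6% fell. Siglech and Gp1bb had no count in any library. Cd3e was at 136 ± 4.87 CPM in the control group and 169 ± 15.3 CPM in the DB2313 group. Per kilobase, Cd8a was at 32.6 ± 1.07 and 47.2 ± 2.82 CPM, Cd8b1 at 72.4 ± 4.06 and 112 ± 1.41, Cd4 at 52.8 ± 0.623 and 72.9 ± 1.14, and Foxp3, which defines regulatory T cells, at 28.3 ± 0.461 and 34.9 ± 0.305 (SD, n = 3 each), so the markers do not show a pure CD8T population. The part of these shifts in the changes below was not tested.

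Most of the 10 genes were lower in the DB2313 group. All 10 passed the filter on low counts; 8 fell, where 24.6% of all tested genes did, 1 rose (Nt5e), where 20.8% did, and Adora2a did not pass the test. With a log2 fold change beyond 1 required as well, 4 genes were lower (P2ry6, P2ry12, P2ry14 and Entpd1) against 5.3% of all tested genes. P2ry6 and P2ry14 stood close to that limit, at -1.003 (95% interval -1.14 to -0.86) and -1.03 (-1.14 to -0.92). With single libraries left out P2ry6 ranged from -1.02 to -0.97. The rise of Nt5e stayed under that size, which 1.37% of tested genes exceeded upward. The median log2 fold change was -0.70 over the 10 genes and 0.019 over all tested genes. In all 10 genes the 3 libraries of a group lay on 1 side of the 3 of the other, which held for 53.1% of all tested genes, and the exact two-sided permutation test gave p = 0.1 for each, the smallest that 3 against 3 samples allow.

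**Figure D1:**
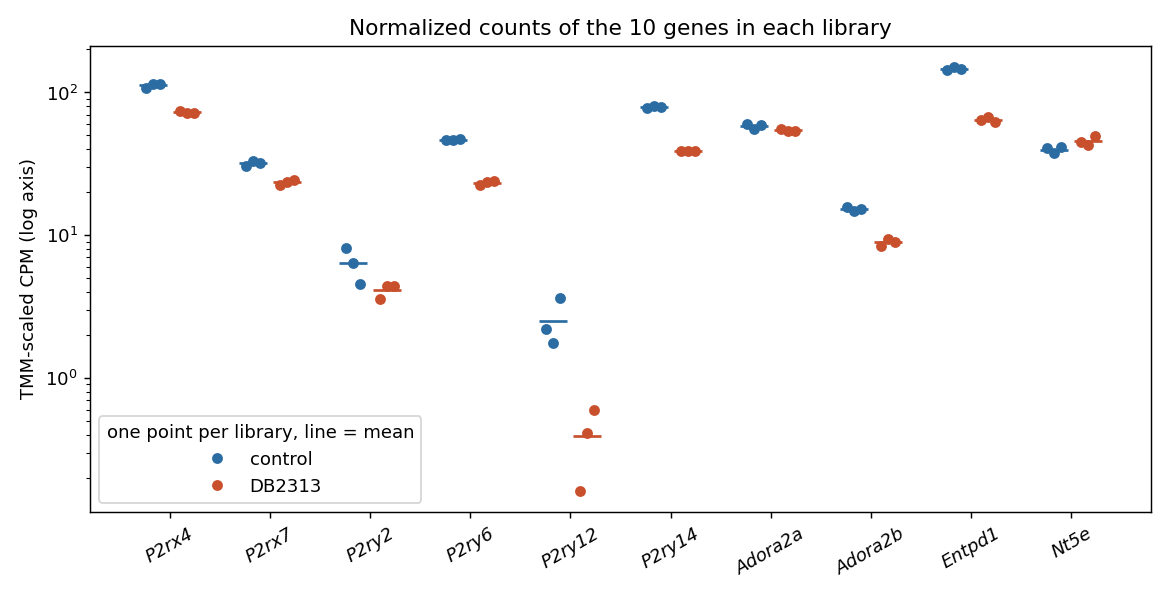
Normalized counts (TMM-scaled CPM, log axis) of the 10 genes, with 1 point per library and a line at the mean of 3 libraries, control in blue and DB2313 in red. Control points lie above DB2313 points in every gene but Nt5e, where 37.4 to 41.4 CPM in the control group stand below 43.0 to 49.3 CPM in the DB2313 group, and the gap in Adora2a is narrow.

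The order of levels per gene length changed between the groups. The deposited lengths of P2rx7, P2ry6, P2ry12, P2ry14 and Entpd1 equal the bases of all their annotated exons. A gene whose RNA uses fewer of those bases is placed too low, so the order depends on these lengths. Without division by length, P2ry14 (79.1 CPM) stood above Adora2a (58.2 CPM) in the control group. The lengths also enter each ratio between genes, but not its change between the groups. In the control libraries the most abundant of the 10 mRNAs per kilobase was Entpd1 (26.3 ± 0.676 CPM per kilobase), followed by Adora2a (19 ± 0.68), P2ry6 (16.2 ± 0.0424), P2rx4 (15.9 ± 0.533), Adora2b (8.27 ± 0.276), P2ry14 (7.16 ± 0.128), P2rx7 (5.35 ± 0.206), Nt5e (4.63 ± 0.245), P2ry2 (1.61 ± 0.447) and P2ry12 (0.991 ± 0.379; SD, n = 3 each). The libraries of P2ry6 and P2rx4 overlapped, as did those of P2ry2 and P2ry12, so these neighbours were not ordered. In the DB2313 libraries Adora2a came first (17.7 ± 0.306 CPM per kilobase), ahead of Entpd1 (11.5 ± 0.535), P2rx4 (10.3 ± 0.205), P2ry6 (8.08 ± 0.297), Nt5e (5.32 ± 0.378), Adora2b (4.85 ± 0.285), P2rx7 (3.93 ± 0.153), P2ry14 (3.51 ± 0.0202), P2ry2 (1.05 ± 0.121) and P2ry12 (0.153 ± 0.0858; SD, n = 3 each). Here the libraries of Nt5e and Adora2b overlapped, and those of the other neighbours in the order did not.

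Both ATP-gated channels fell. P2rx4 (ENSMUSG00000029470), a cation channel that responds to low ATP and sits largely in lysosomes of macrophages, had 108, 114 and 114 CPM in the control libraries and 74.3, 71.7 and 71.9 CPM in the DB2313 libraries. It fell to 0.648 of the control mean, a log2 fold change of -0.62 (standard error 0.044, adjusted p = 2.91e-11, edgeR). P2rx7 (ENSMUSG00000029468), which needs high ATP and is the classical trigger of potassium efflux before inflammasome activation, had 30.7, 33.2 and 31.9 CPM in the control libraries and 22.6, 23.4 and 24.4 CPM with DB2313. The groups did not overlap, and P2rx7 fell by 0.44 on the log2 scale (standard error 0.0742, adjusted p = 2.96e-05, edgeR). Within each library P2rx4 was counted 2.92 to 3.05 times as high per kilobase as P2rx7 in the control group and 2.5 to 2.8 times in the DB2313 group. The ratio is free of library scaling, and its change of -0.18 on the log2 scale had p = 0.1 in the exact permutation test. The channels are neighbours on the plus strand of chromosome 5 of GRCm38, P2rx7 from 122643911 to 122691432 and P2rx4 from 122707544 to 122729738, with 16111 bases and 1 other annotated gene between them.

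The 4 P2Y receptors among the 10 genes fell as well, by very different amounts and from very different levels. P2ry6 (ENSMUSG00000048779), the receptor for UDP that drives phagocytosis and cytokine release in macrophages and microglia, had 46.6, 46.7 and 46.9 CPM in the control libraries and 22.4, 23.6 and 24 CPM in the DB2313 libraries. The control libraries were nearly equal and all DB2313 libraries lay far below them, with a log2 fold change of -1.003 (standard error 0.0669, adjusted p = 1.09e-11, edgeR). P2ry2 (ENSMUSG00000032860), a receptor for ATP and UTP that acts in chemotaxis toward dying cells, was much less abundant, at 8.09, 6.34 and 4.58 CPM in the control libraries and 3.57, 4.4 and 4.4 CPM with DB2313. Its control libraries spread widely, and the lowest of them lay just above the DB2313 libraries. The log2 fold change of -0.63 (standard error 0.194, adjusted p = 0.0107, edgeR) no longer passed without control replicate 1 (-0.41) or without DB2313 replicate 1 (-0.53). These receptors are direct neighbours on the minus strand of chromosome 7, P2ry6 from 100937630 to 100974649 and P2ry2 from 100996568 to 101012866, with no annotated gene in the 21918 bases between them. The ratio of P2ry6 to P2ry2 per kilobase was 7.84, 10.0 and 13.9 in the control libraries and 8.51, 7.29 and 7.42 with DB2313, so the groups overlapped (p = 0.2, exact permutation test).

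P2ry14 and P2ry12 also share a locus, on the minus strand of chromosome 3. P2ry14 (ENSMUSG00000036381, 59113855 to 59153618), the receptor for UDP-glucose and related sugars, had 77.8, 80.6 and 79.0 CPM in the control libraries and 39.0, 38.8 and 38.6 CPM in the DB2313 libraries. The DB2313 libraries differed by less than 1 CPM, and P2ry14 fell by 1.03 on the log2 scale (standard error 0.0536, adjusted p = 1.14e-13, edgeR). P2ry12 (ENSMUSG00000036353, 59216272 to 59262871), the ADP receptor of platelets and resting microglia, had the largest change and the lowest mean level of the 10 genes. Its raw counts were 40, 30 and 59 (control) and 3, 7 and 11 (DB2313), or 2.22, 1.75 and 3.6 CPM and 0.162, 0.41 and 0.598 CPM. The log2 fold change of -2.67 (standard error 0.424, adjusted p = 1.5e-05, edgeR) has a 95% interval from -3.55 to -1.79, the widest of the 10, and it ranged from -3.12 to -2.29 when single libraries were left out. P2ry14 was 8.07, 10.6 and 5.05 times as high per kilobase as P2ry12 in the control libraries and 55.3, 21.8 and 14.9 times in the DB2313 libraries, without overlap (p = 0.1, exact permutation test). Platelet and megakaryocyte markers took 0.0249% to 0.0254% of counts in control libraries and 0.0425% to 0.0456% in DB2313 libraries, and their part in the change of P2ry12 was not tested. Neutrophil markers took 0.14% to 0.141% and 0.0554% to 0.0579%.

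Both receptor genes lie inside the span of Med12l on the opposite strand. P2ry14 shares no exon base with Med12l and P2ry12 shares 9. Whether the counting used strand is not given in the sources used here, so reads in those 9 bases could belong to either gene. Med12l, a Mediator subunit gene, had 386 counts over all 6 libraries and a log2 fold change of -0.10 (standard error 0.21), which did not pass. Between the 2 genes lies P2ry13, another ADP receptor, which fell from 33.5 ± 2.73 to 9.58 ± 1.34 CPM (SD, n = 3 each), a log2 fold change of -1.81 (standard error 0.101). Gpr171 of the same locus, a receptor found on T cells, fell from 68.0 ± 2.58 to 51.2 ± 2.8 CPM (SD, n = 3 each), a log2 fold change of -0.41 (standard error 0.057). P2ry12, P2ry13 and P2ry14 of this locus thus fell past a log2 fold change of 1 while the surrounding Med12l and the neighbouring Gpr171 did not. P2ry14 passed it narrowly, with a 95% interval from -1.14 to -0.92. A stretch before a start site is shown for P2ry14, where the motif occurs, and for P2ry12, where it does not. Each is RefSeq sequence of GRCm38.p6, minus strand, read 5′ to 3′ and ending 1 base before an annotated start, and capitals mark GAGGAA or its reverse complement, a purine-rich element bound by Spi1. The shorter GGAA, which ETS factors share, was not counted and also occurs outside capitals, as in the P2ry12 stretch.

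P2ry14, second start, chr3:59131329-59131578: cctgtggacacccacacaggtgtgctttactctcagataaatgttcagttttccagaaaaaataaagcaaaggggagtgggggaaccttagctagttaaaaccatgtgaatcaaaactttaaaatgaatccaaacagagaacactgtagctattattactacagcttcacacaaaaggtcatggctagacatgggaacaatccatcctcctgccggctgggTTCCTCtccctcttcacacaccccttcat

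P2ry12, chr3:59262986-59263235: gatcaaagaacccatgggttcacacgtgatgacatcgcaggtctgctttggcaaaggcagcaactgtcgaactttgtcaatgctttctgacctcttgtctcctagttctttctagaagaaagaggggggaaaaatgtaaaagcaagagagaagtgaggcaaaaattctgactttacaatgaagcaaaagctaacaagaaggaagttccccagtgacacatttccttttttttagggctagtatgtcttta

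The ectonucleotidases moved in opposite directions. Entpd1 (ENSMUSG00000048120, plus strand of chromosome 19 from 40612366 to 40741602), which removes ATP and ADP, had 143, 151 and 147 CPM in the control libraries and 63.8, 67.6 and 61.7 CPM in the DB2313 libraries. The groups were far apart, with a log2 fold change of -1.19 (standard error 0.0441, adjusted p = 2.05e-16, edgeR) and a control mean 2.28 times the DB2313 mean. Nt5e (ENSMUSG00000032420, plus strand of chromosome 9 from 88327197 to 88372092), which forms adenosine, had 40.6, 37.4 and 41.4 CPM in the control libraries and 44.9, 43.0 and 49.3 CPM in the DB2313 libraries. Its rise was small, with a log2 fold change of 0.20 (standard error 0.0676, adjusted p = 0.0174, edgeR). With DESeq2, which the study's methods name, Nt5e passed only narrowly (0.20, adjusted p = 0.0499). In edgeR it did not pass without control replicate 2 (0.16) or without DB2313 replicate 3 (0.15). Its sign turned to -0.39 when libraries were scaled to the T cell markers.

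The balance of the enzymes within a library does not depend on that scaling. Per kilobase, Entpd1 was 5.43, 6.2 and 5.47 times as high as Nt5e in the control libraries and 2.19, 2.42 and 1.93 times in the DB2313 libraries. The ratio changed by -1.39 on the log2 scale (p = 0.1, exact permutation test, adjusted p = 0.125 over the 5 ratios computed). Entpd1 fell and Nt5e rose, each without overlap, so the ratio could not overlap either. Its p-value therefore adds nothing to the changes of the 2 genes. Of the 5 markers of CD4 and regulatory T cells, 3 rose and 1 fell, and they took 0.0587% to 0.0605% of counts in control libraries and 0.073% to 0.0744% in DB2313 libraries. Their part in the changes of Entpd1 and Nt5e was not tested.

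**Figure D2:**
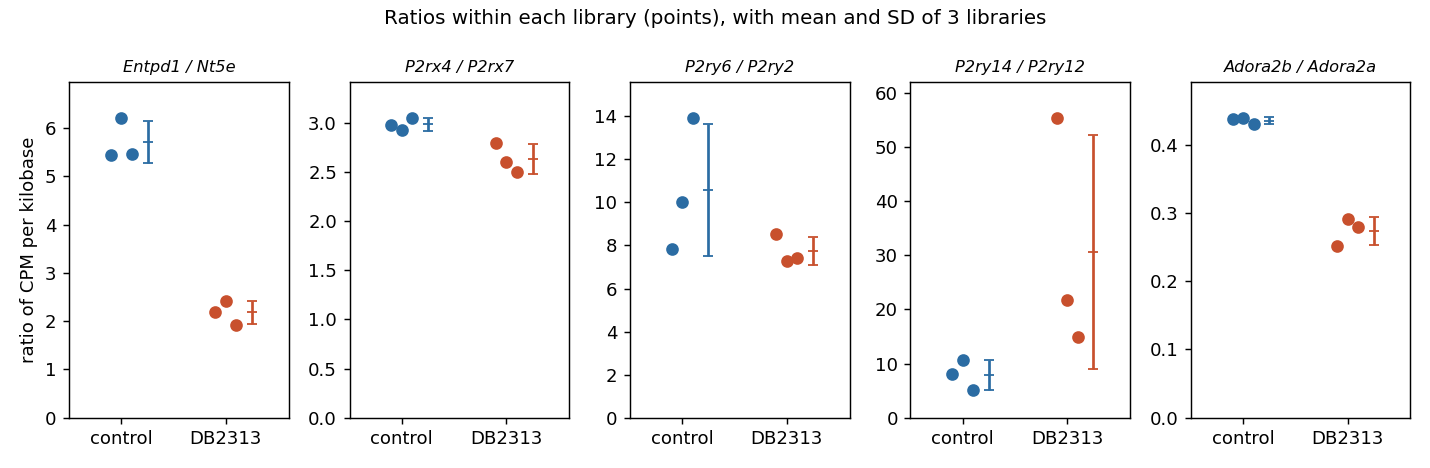
Ratios of CPM per kilobase between paired members within each library, control in blue and DB2313 in red, with the mean and SD of 3 libraries beside the points and each axis starting at 0. The ratio of Entpd1 to Nt5e drops from 5.7 ± 0.434 to 2.18 ± 0.247 and that of Adora2b to Adora2a from 0.436 ± 0.00486 to 0.274 ± 0.0201, whereas the groups overlap for P2ry6 and P2ry2.

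Entpd1 has 2 annotated RefSeq starts, 1 at the first base of the gene and 1 at position 40659770 inside it, and the counts do not separate them. The 250 bases before each are shown because they differ in the motif, on the plus strand and with capitals as above: the first holds no GAGGAA on either strand and the second holds it 2 times.

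Entpd1, first start, chr19:40612116-40612365: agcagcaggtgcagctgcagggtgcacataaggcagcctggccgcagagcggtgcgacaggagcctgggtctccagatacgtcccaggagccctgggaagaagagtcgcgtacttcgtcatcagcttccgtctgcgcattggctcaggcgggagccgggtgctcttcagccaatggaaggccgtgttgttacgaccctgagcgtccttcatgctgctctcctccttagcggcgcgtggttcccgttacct

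Entpd1, second start, chr19:40659520-40659769: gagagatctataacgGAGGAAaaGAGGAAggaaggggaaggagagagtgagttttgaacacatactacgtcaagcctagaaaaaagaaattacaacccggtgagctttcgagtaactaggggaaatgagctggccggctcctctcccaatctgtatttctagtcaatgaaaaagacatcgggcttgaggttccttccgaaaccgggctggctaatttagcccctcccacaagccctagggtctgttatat

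Promoter windows of 300 bases (250 before and 50 from the start) were found for 8 of the 10 genes, some with several starts. These 8 genes had 14 windows, and all 27025 genes with a window had 32851. The shares per gene below are thus not over equal lengths of sequence. GAGGAA occurred on either strand in 3 of the 8 genes (Entpd1, P2rx7 and P2ry14), where 31.3% of all genes with a window hold it. The longer GAGGAAGT, which contains it, occurred in 1 (P2rx7) against 3.69%, the AP-1 element TGACTCA in 2 (P2rx7 and P2ry14) against 5.95%, and the cyclic AMP element TGACGTCA in 0 against 2.03%. These matches describe letters in these windows and no binding.

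The adenosine receptors differed from each other. Adora2a (ENSMUSG00000020178, plus strand of chromosome 10 from 75316877 to 75334784), the high-affinity receptor that restrains activated T cells, had 59.9, 55.9 and 58.7 CPM in the control libraries and 55.3, 53.9 and 53.6 CPM in the DB2313 libraries. The lowest control library exceeded the highest DB2313 library by less than 1 CPM. Its log2 fold change of -0.10 (standard error 0.0552, 95% interval -0.21 to 0.01, adjusted p = 0.148, edgeR) did not pass. Adora2b (ENSMUSG00000018500, plus strand of chromosome 11 from 62248984 to 62266453), which responds to high adenosine and is induced in activated macrophages, had 15.8, 14.8 and 15.2 CPM in the control libraries and 8.39, 9.44 and 9.02 CPM with DB2313. It fell by 0.77 on the log2 scale (standard error 0.108, adjusted p = 2.7e-06, edgeR). Within each library Adora2b was 0.43 to 0.439 times as high per kilobase as Adora2a in the control group and 0.252 to 0.291 times in the DB2313 group, a change of -0.67 on the log2 scale without overlap (p = 0.1, exact permutation test).

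**Figure D3:**
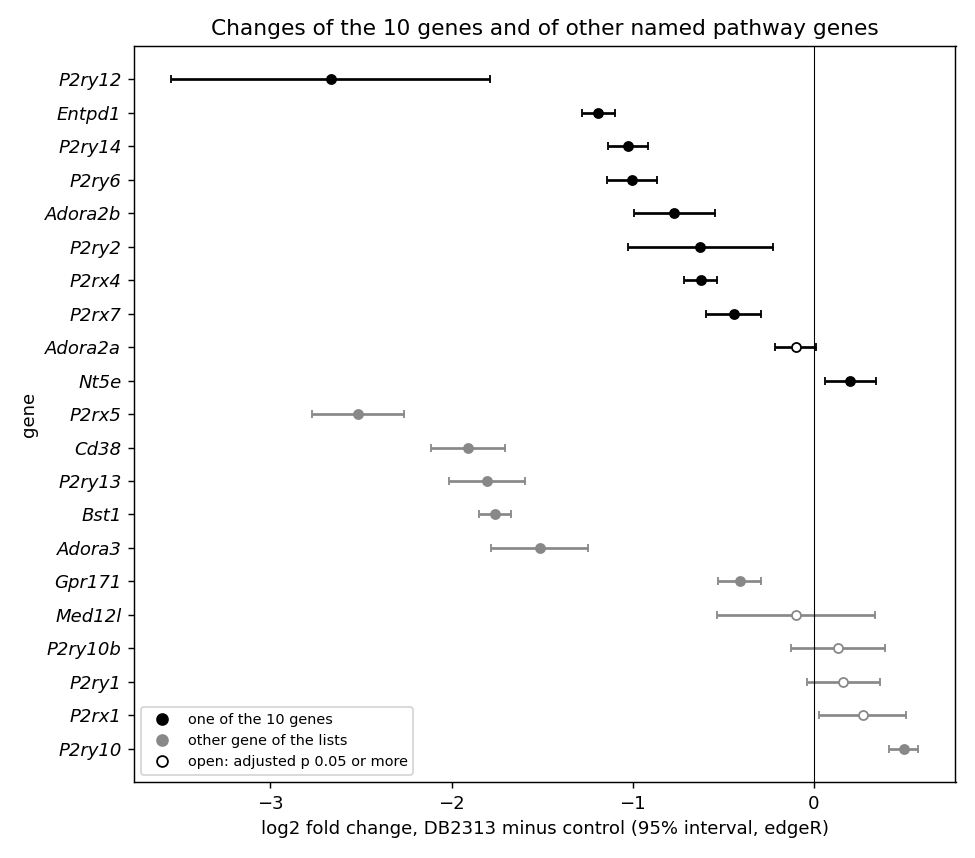
Log2 fold changes (DB2313 minus control) with 95% intervals from edgeR for the 10 genes (black) and the other named genes of the pathway lists (grey), open where the adjusted p was 0.05 or more. P2ry12 has the widest interval (-3.55 to -1.79), Nt5e is the only filled black point right of 0, and P2ry10 the only filled grey one.

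Other genes of nucleotide and adenosine signalling were followed as lists. Of 85 genes, 83 had a row under the listed symbol and 64 were tested. Of these 17 rose, 21 fell and 26 did not pass, where 20.8% of all tested genes rose and 24.6% fell. The median log2 fold change of the 64 was 0.00079. Among 6 tested of the 10 other P2X and P2Y receptors 2 fell and 1 rose. P2rx5, an ATP-gated channel of lymphoid and myeloid cells, fell from 28.3 ± 1.1 to 4.97 ± 1.23 CPM (log2 fold change -2.52, standard error 0.123), and P2ry13 fell as described. P2ry10, a lysophosphatidylserine receptor of lymphocytes, rose from 98.4 ± 1.87 to 139 ± 2.42 CPM (log2 fold change 0.50, standard error 0.0388). With scaling to the T cell markers P2ry10 instead passed as lower, at -0.093 (adjusted p = 0.0351, edgeR). P2rx1, P2ry1 and P2ry10b stood at 0.27, 0.16 and 0.14 and did not pass, although P2rx1 passed as higher without control replicate 2 (0.35) or DB2313 replicate 2 (0.38). P2ry10 and P2ry10b are similar copies, so the division of their reads is uncertain. Adora3, the adenosine receptor of mast cells and other myeloid cells, fell from 13 ± 0.546 to 4.55 ± 0.331 CPM (log2 fold change -1.51, standard error 0.13), and Adora1 had no count in any library, a floor of 3 counts (1.81e-05% of counts in the smallest library).

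The other enzymes and transporters moved both ways, where 20.8% of all tested genes rose and 24.6% fell. Of 8 genes listed as other extracellular nucleotide hydrolases 3 were tested. Enpp1 (0.33), Enpp2 (-0.47) and Alpl (-0.19) had adjusted p-values of 0.0801, 0.44 and 0.76 (edgeR) and did not pass. Entpd8 had no count. Among 8 tested intracellular Entpd and 5′-nucleotidase genes 2 rose and 2 fell. Of 9 tested genes of adenosine uptake and breakdown 3 rose and 1 fell: the nucleoside carrier Slc28a2 rose by 0.59, Ahcy, which handles S-adenosylhomocysteine, by 0.56 and the phosphorylase gene Pnp by 0.16, and the lysosomal nucleoside carrier Slc29a3 fell by 0.70 on the log2 scale. Ada and Adk, which clear adenosine, stood at 0.13 and 0.11 and did not pass. Of 7 tested genes of nucleotide release 1 rose (Slc17a9, the vesicular nucleotide carrier, by 0.48) and 2 fell (Lrrc8c and Lrrc8d, by 0.39 and 0.32). All 4 tested NAD-dependent ectoenzymes changed. Bst1 fell from 178 ± 5.33 to 52.5 ± 1.52 CPM (log2 fold change -1.76, standard error 0.0428) and Cd38, an NAD-consuming enzyme, from 27.2 ± 0.757 to 7.25 ± 0.56 CPM (log2 fold change -1.91, standard error 0.0986; SD, n = 3 each), whereas Art2b, which modifies P2rx7 on mouse T cells, rose by 0.51 and Art4 by 0.69 on the log2 scale. Art2b has a similar copy, so its share of reads is uncertain. Among 24 G protein, adenylyl cyclase, kinase A and phosphodiesterase genes, 8 rose and 10 fell. Their largest changes were -0.91 in Prkar2a, -0.70 in Gnaq and 0.67 in Pde3b. Prkar2a is a regulatory subunit of kinase A, Gnaq couples some P2Y receptors to calcium, and Pde3b degrades cyclic AMP.

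Genes with the most similar profiles over the 6 libraries were sought for the 3 called members with the largest changes, as the smallest root mean square difference of centred log2 CPM among 10349 protein-coding genes. For Entpd1 they were Batf2 (0.0242) and H2-DMa (0.0273), for P2ry14 Psap (0.0222) and Arrb1 (0.0293), and for P2ry12 Il1f9 (0.364) and Sept4 (0.373). P2ry12 itself lay under the level required of candidates, at means of 2.52 CPM (control) and 0.39 CPM (DB2313). Its larger distances therefore cannot be told apart from counting noise at 3 to 59 counts a library.

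The size and in 1 gene the direction of these changes rested on how the libraries were scaled. With library size alone the 10 log2 fold changes were between -2.57 and 0.30, and P2ry6 and P2ry14 then stood at -0.91 and -0.93, short of 1. With scaling to the summed counts of the 20 T cell markers all 10 genes were lower and passed, where 11521 of the 14883 tested genes did. Entpd1 then stood at -1.78, P2rx7 at -1.03, Adora2a at -0.69 and Nt5e at -0.39. Over all tested genes the share of falls among calls was 54.2% with TMM, 36.6% with library size, 41.8% with the upper quartile and 98.6% with the T cell markers, which moved the median of all genes to -0.57. Relative to that median, Nt5e was above and the 8 genes that fell under TMM were below.

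**Figure D4:**
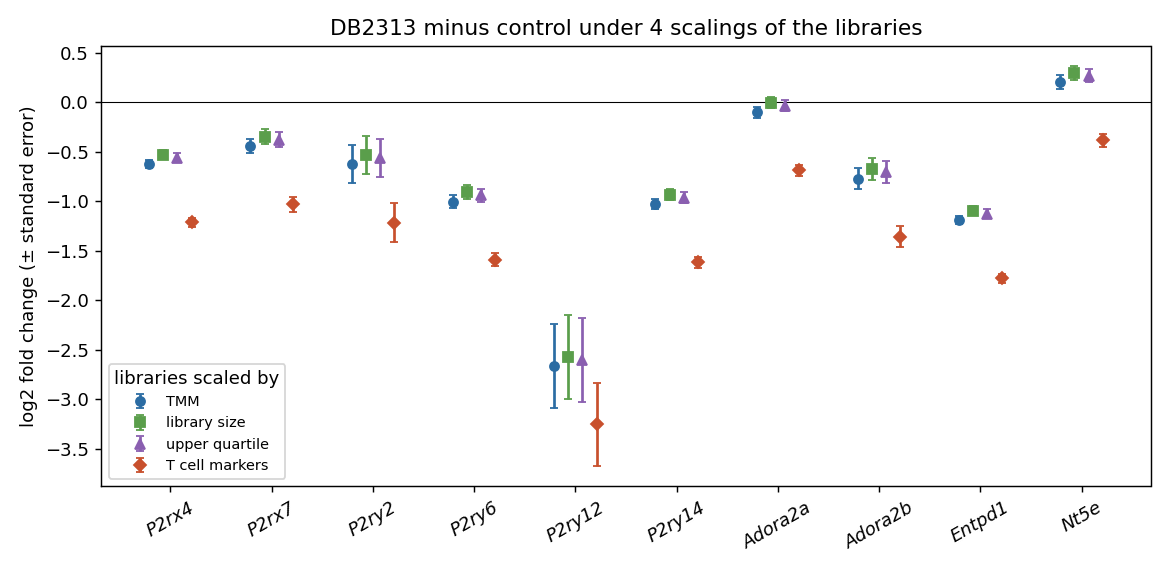
Log2 fold changes (DB2313 minus control, with standard errors) of the 10 genes under 4 scalings, by TMM (blue circles), library size (green squares), upper quartile (purple triangles) and T cell markers (red diamonds). Scaling to the T cell markers shifts each gene down, Nt5e from 0.20 to -0.39 and Adora2a from -0.10 to -0.69.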

How the data were processed

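RNA of 3 control and 3 DB2313 samples had been sequenced. The authors deposited raw counts per gene, with a gene length in bases. The study's methods name LifeScope for alignment and counting, whereas the submitters' processing notes name CASAVA 1.8, HISAT2 2.0.5 and featureCounts 1.5.0-p3. Genome build, annotation, strand setting and read filters are not given in the sources used here. Of 54495 genes shared with GENCODE mouse release M21, 98.3% had its GRCm38 coordinates, including all 10 members.

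Counts were fitted over the whole table with edgeR 4.0.16 in R 4.3.3 (filterByExpr, TMM, glmQLFit, glmQLFTest, group as the only factor). Standard errors came from the fitted change and its F statistic. CPM per kilobase used the deposited length. Libraries within a group differed by a chi-square per gene of 2.54 to 4.00, above sampling noise, so each counted as 1 sample. No molecular identifiers were counted, so floors describe counting error alone. The fit was also run on simulated counts with a small set of genes changed equally up and down. These counts held no shift in cell mixture, so that run cannot judge the choice of scaling. Promoter sequences were those of RefSeq on GRCm38.p6.

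Members, gene lists and alternatives were chosen with earlier results of these data known, and the ratios between members after their changes were seen. The named genes were all members, tested genes of the other receptor and locus lists, up to 3 genes per list past 0.05 and a log2 fold change of 1, and the 2 most similar genes of 3 members. Further genes of the enzyme, transporter and signalling lists, and the markers Cd3e, Cd8a, Cd8b1, Cd4 and Foxp3, were named after their values were seen. Alternatives were DESeq2 1.42.0, other scalings and filters, protein-coding genes, a replicate block and leaving out each sample.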

Additional observations from a re-analysis of the deposited data

How the results depend on the processing

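Of 149 refits of the 10 genes under 15 alternatives, 143 gave the same direction and call, 4 lost the call, 1 gained it and 1 reversed, and P2ry12 could not be fitted with at least 10 counts in every sample. The number of lower genes was 8 in the main test, and 4 with a log2 fold change beyond 1 required as well. With single samples left out it ranged from 7 to 8. The number of higher genes was 1, but 0 with that fold, 0 with scaling to the T cell markers, and from 0 to 1 with single samples left out. Under the T cell scaling Nt5e reversed to -0.39 and Adora2a passed at -0.69, a scaling that moves the median of all genes to -0.57. With single samples left out P2ry2 ranged from -0.81 to -0.41 (weakest without control replicate 1) and Nt5e from 0.15 to 0.25 (weakest without DB2313 replicate 3); the cause was not tested.

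Of the other named genes, the T cell scaling reversed P2rx1 (-0.32), P2ry1 (-0.43), P2ry10 (-0.093) and P2ry10b (-0.45), and each passed as lower there. P2rx1 gained a call as higher with library size only (0.37), the upper quartile (0.33) and protein-coding genes (0.27), and P2ry1 with library size only (0.26). Med12l passed as lower with the T cell scaling (-0.69). It ranged from -0.30 to 0.0072 with single samples left out, above 0 without control replicate 3 (0.0072) or DB2313 replicate 2 (0.0049). Of the 64 other pathway genes tested, 17 rose and 21 fell in the main test, 26 and 19 with library size only, and 1 and 53 with the T cell scaling. Over all genes the main 3096 higher and 3667 lower became 4931 and 2852 with library size only, and 166 and 11521 with the T cell scaling. With a replicate block 8 genes were lower and 1 higher, as without it. Deviations of same-numbered samples from their group means correlated at 0.0138, -0.00389 and 0.0187. With 3 libraries a group, these values cannot decide whether same-numbered samples shared a culture or a mouse. The depth limits P2ry12 and P2ry2 most, with 3 to 59 and 66 to 146 counts a library.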
